A study of Mus musculus with 6 samples.

Results

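The genes described are 10 efflux and organic anion transporters of the blood-brain barrier, of 54532 genes in the table, taken by name: Abcb1a, Abcb1b, Abcg2, Abcc1, Abcc4, Abcc5, Slco1a4, Slco1c1, Slco2b1 and Slc22a8. They were read by RNA-seq in endothelial cells sorted from mouse brain (live, CD31+, CD45-, PDGFRb-) in 6 libraries. All mice carried the heterozygous deletion Df(h22q11)/+, a model of human 22q11.2 deletion syndrome, so that none of the comparisons is with wild-type mice, which were not analysed here. The untreated group ate irradiated base chow (libraries F_1 and F_2 from females, M_1 from males), and the bezafibrate group ate chow with 0.5% bezafibrate for 4 weeks (F_1 from females, M_1 and M_2 from males). Bezafibrate is a fibrate, a lipid-lowering drug that activates PPAR nuclear receptors. Mice were 12 to 16 weeks old, and each library pooled 3 brains, so a p-value measures the spread between pools.

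Endothelial cells of the brain are joined by tight junctions, and small lipophilic or anionic compounds cross them mainly as transporters allow. ABC transporters use ATP to pump substrates out of the cell: P-glycoprotein, which rodents encode in the Abcb1a and Abcb1b genes, and ABCG2 at the blood-facing membrane return drugs to the blood, and the ABCC family exports organic anions and conjugates. Organic anion transporters of the SLCO and SLC22 families exchange or carry anions such as steroid conjugates, thyroid hormone and drugs across the same cells. Several of these genes are known from other tissues to respond to ligand-activated nuclear receptors, among them PPARs.

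Depth was even, at 16858130 to 20228619 recovered reads per library. On the first principal component of all genes tested, which held 39.3% of the variance, 2 libraries scored far from the rest: untreated M_1 at 30.3 and bezafibrate F_1 at 24.4, against -22.6 to 1.62. The endothelial list had all 16 of its markers above the filter, with a summed level of 9386 to 13944 FPKM in untreated and 8317 to 12924 FPKM in bezafibrate libraries. FPKM divides reads by library size and by a length per gene, which for 9 of the 10 transporters equals the merged exons of all annotated transcripts. Levels compared between genes are per that length, which exceeds the length of a single transcript in genes with many isoforms, such as Abcc1 (15092 bases over 12 transcripts) and Abcc5 (10681 bases over 13), and lowers their FPKM. Other cells were also represented: oligodendrocyte markers summed to 499 to 1040 and 424 to 903 FPKM, pericyte markers to 199 to 363 and 202 to 281 FPKM, and choroid plexus and ependymal markers to 423 to 487 and 476 to 1063 FPKM. Fibroblast markers stayed at or below 4.68 FPKM in sum, neuronal ones at or below 19.9 FPKM. In such bulk samples fewer cells of a type and less RNA per cell cannot be told apart.

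The transporters covered more than 3 orders of magnitude in level, with Slco1a4, Abcb1a and Slco1c1 at the top and Abcb1b at the bottom. Over the 6 libraries the mean level was 480 FPKM for Slco1a4, 439.98 FPKM for Abcb1a, 366 FPKM for Slco1c1, 157 FPKM for Slc22a8, 86.1 FPKM for Abcg2, 80.2 FPKM for Abcc4, 51.5 FPKM for Slco2b1, 6.77 FPKM for Abcc5, 1.08 FPKM for Abcc1 and 0.382 FPKM for Abcb1b. Among 10066 protein-coding genes tested, Slco1a4 ranked 66, Abcb1a 73, Slco1c1 85, Slc22a8 228, Abcg2 457, Abcc4 491 and Slco2b1 762, whereas Abcc5 ranked 4882 and Abcc1 9816. Neighbours in this order differed without overlap of their 6 values except in 3 places: Slco1a4 over Abcb1a, Abcb1a over Slco1c1, and Abcg2 over Abcc4 each held in 5 of 6 libraries. The widest step was from Slco2b1 to Abcc5, at 7.62-fold. The order was the same in the 3 untreated libraries. Abcb1a led Slco1a4, and Abcc4 exceeded Abcg2, in bezafibrate F_1, and Slco1c1 exceeded Abcb1a in bezafibrate M_2.

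**Figure D1:**
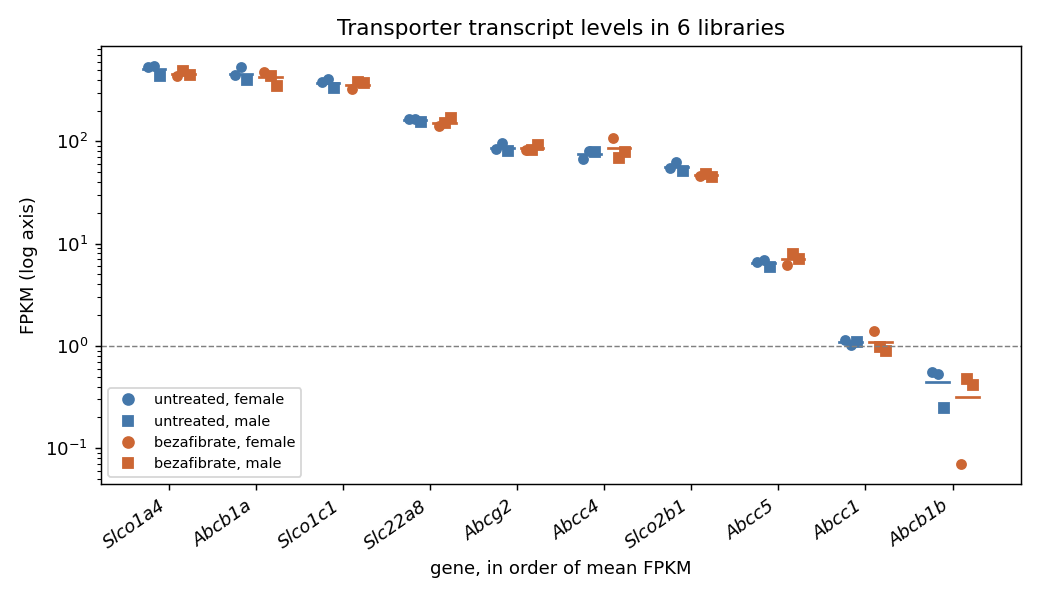
Level of each transporter in every library, in FPKM on a log axis, with females as circles and males as squares, untreated in blue and bezafibrate in orange; the short lines are group means (n = 3) and the dashed line marks 1 FPKM. The genes lie in 3 tiers, from 480 FPKM for Slco1a4 to 51.5 FPKM for Slco2b1, then Abcc5 at 6.77 FPKM, then Abcc1 and Abcb1b at 1.08 and 0.382 FPKM.

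Together the 10 genes summed to 1723 ± 182 FPKM in untreated and 1614 ± 52.0 FPKM in bezafibrate libraries (SD, n = 3 each). This was 0.475% to 0.626% of all FPKM in untreated and 0.525% to 0.654% in bezafibrate libraries. Carriers of the SLCO and SLC22 families outweighed the ABC pumps in every library, by 1.89, 1.65 and 1.73 times in the untreated libraries (F_1, F_2, M_1) and by 1.39, 1.78 and 1.94 times in bezafibrate F_1, M_1 and M_2. The ratio thus had its lowest and its highest value within the bezafibrate group, and the groups overlapped.

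Among the pumps, Abcb1a encodes the P-glycoprotein isoform known as that of the rodent blood-brain barrier (chr5:8660077-8748575, + strand, GRCm38; ENSMUSG00000040584). It stood at 443, 532 and 394 FPKM in the untreated libraries (F_1, F_2, M_1), and at 481, 439 and 351 FPKM in bezafibrate F_1, M_1 and M_2. The highest and the lowest of the 6 libraries lay in different groups, but the rest interleaved. The group means were 456.5 ± 70.05 and 423 ± 66.3 FPKM (SD, n = 3 each), a difference of -0.11 on the log2(FPKM + 1) scale (SE 0.185, limma adjusted p = 0.999).

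Its tandem copy Abcb1b (chr5:8798147-8866315, + strand; ENSMUSG00000028970), the other rodent P-glycoprotein gene, starts 49.6 kb beyond the end of Abcb1a. It had 0.554, 0.534 and 0.249 FPKM in the untreated libraries (F_1, F_2, M_1) and 0.0695, 0.471 and 0.413 FPKM in bezafibrate F_1, M_1 and M_2, from 89, 76, 37, 10, 80 and 62 recovered reads in that order. Bezafibrate F_1 was the lowest and the other 5 libraries overlapped across groups. Abcb1b did not reach 1 FPKM in any library and was therefore not tested. Of the FPKM of both Abcb1 genes, Abcb1b made up 0.125%, 0.1002% and 0.0632% in the untreated and 0.0145%, 0.107% and 0.118% in the bezafibrate libraries.

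How reads are divided between these copies depends on how far they differ. The coding sequences are 3828 bases each without the stop codon, and 87.98% of 3819 aligned columns were identical. Of all 31-base words in Abcb1a transcripts, 21.7% also occurred in Abcb1b, and 14.8% of those of Abcb1b occurred in Abcb1a. Of 75-base words, 17.1% for Abcb1a and 9.01% for Abcb1b occurred in some other gene. Single reads of 75 bases from shared stretches can be assigned to either gene, and the level of Abcb1b is uncertain for that reason. The longest identical run was 338 bases. The part of it around the ABC signature, a loop that helps to form the ATP site of the pump, is printed here with the bases encoding that motif in capitals, and next to it the 75-base window in which the copies differ most (47 bases identical), with the differing bases in capitals.
Abcb1a and Abcb1b, shared: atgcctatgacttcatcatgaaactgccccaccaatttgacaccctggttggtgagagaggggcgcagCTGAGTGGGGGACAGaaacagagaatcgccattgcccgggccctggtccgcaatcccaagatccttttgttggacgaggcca
Abcb1a, least alike: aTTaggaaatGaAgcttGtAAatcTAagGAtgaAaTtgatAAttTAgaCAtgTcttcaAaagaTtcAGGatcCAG
Abcb1b, least alike: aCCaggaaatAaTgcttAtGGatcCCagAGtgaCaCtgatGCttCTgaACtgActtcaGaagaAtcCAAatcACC
Positions from the first coding base are 1511 to 1660 (Abcb1a) and 1520 to 1669 (Abcb1b) for the shared part, and 1896 to 1970 and 1905 to 1979 for the window of differences. Abcb1a also has 10.1% of its exon bases overlapped by Gm42686 on the opposite strand, listed at 0 to 0.775 FPKM. Whether reads were counted by strand is not stated, so reads of such pairs cannot be told apart.

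Abcg2, the half-transporter known as breast cancer resistance protein (chr6:58584523-58695676, + strand; ENSMUSG00000029802), varied little. Its levels were 84.0, 95.8 and 80.7 FPKM in the untreated libraries (F_1, F_2, M_1) and 81.8, 81.5 and 92.4 FPKM in bezafibrate F_1, M_1 and M_2. All 3 bezafibrate values lay inside the untreated range. The means were 86.9 ± 7.94 and 85.3 ± 6.18 FPKM, with a log2 difference of -0.03 (SE 0.136, limma adjusted p = 0.999). The ratio of Abcb1a to Abcg2 was 5.27, 5.56 and 4.89 in untreated and 5.87, 5.38 and 3.798 in bezafibrate libraries, so P-glycoprotein mRNA exceeded Abcg2 mRNA in all 6.

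Abcc4 (MRP4; chr14:118482692-118706219, - strand; ENSMUSG00000032849), which exports cyclic nucleotides, steroid conjugates and nucleoside analogues, had the highest difference of the 9 members tested. It was read at 67.4, 79.9 and 78.5 FPKM in the untreated libraries (F_1, F_2, M_1) and at 107, 69.4 and 79.5 FPKM in bezafibrate F_1, M_1 and M_2. Only bezafibrate F_1 lay above the untreated range. The means were 75.2 ± 6.87 and 85.2 ± 19.2 FPKM, with a log2 difference of 0.16 (SE 0.184, limma adjusted p = 0.999), and without bezafibrate F_1 the difference was -0.01. That library is also 1 of the pair that stood apart.

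The other ABCC genes were far lower. Abcc5 (MRP5; chr16:20331303-20426394, - strand; ENSMUSG00000022822), an exporter of cyclic nucleotides, was at 6.67, 6.93 and 5.85 FPKM in untreated and 6.17, 7.92 and 7.07 FPKM in bezafibrate libraries. The log2 difference was 0.10 (SE 0.145, limma adjusted p = 0.999), and the groups overlapped. Abcc1 (MRP1; chr16:14361558-14475737, + strand; ENSMUSG00000023088), an exporter of glutathione conjugates, was at 1.15, 1.01 and 1.096 FPKM in untreated and 1.39, 0.969 and 0.888 FPKM in bezafibrate libraries. Its groups had means of 1.08 ± 0.0717 and 1.08 ± 0.270 FPKM, and its log2 difference was -0.0082 (SE 0.188, limma adjusted p = 0.999). Both genes are on the chromosome that holds the mouse counterpart of the 22q11.2 stretch, but outside it: gaps of 3.36 Mb separate Abcc1 from Dgcr2 and of 1.36 Mb Abcc5 from Hira.

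Of the carriers, Slco1a4 (OATP1A4; chr6:141805440-141856199, - strand; ENSMUSG00000030237), which moves steroid conjugates, bile acids and drugs, was the most abundant of all 10 genes. It was at 539, 547 and 432 FPKM in the untreated libraries (F_1, F_2, M_1) and at 431, 487 and 441 FPKM in bezafibrate F_1, M_1 and M_2. The 2 untreated female libraries were the highest, and untreated M_1 lay among the bezafibrate libraries. The means were 506 ± 64.1 and 453 ± 29.8 FPKM, with a log2 difference of -0.15 (SE 0.156, limma adjusted p = 0.999). Without untreated M_1 the groups no longer overlapped, which then held for 17.2% of all genes.

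Slco1c1 (OATP1C1; chr6:141524368-141570177, + strand; ENSMUSG00000030235) is the thyroxine carrier of brain capillaries and lies 235 kb from Slco1a4. It was at 380.2, 404 and 333 FPKM in the untreated libraries (F_1, F_2, M_1) and at 322, 380.04 and 376 FPKM in bezafibrate F_1, M_1 and M_2. The groups overlapped, and the means were 372 ± 36.1 and 359 ± 32.3 FPKM, with a log2 difference of -0.05 (SE 0.150, limma adjusted p = 0.999). The ratio of Slco1a4 to Slco1c1 was 1.42, 1.35 and 1.30 in untreated and 1.34, 1.28 and 1.17 in bezafibrate libraries. Slco1c1 shared no 31-base word with another gene, and Slco1a4 shared 5.03% of its words, chiefly with Slco1a5, which was at 0 to 0.468 FPKM.

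Slc22a8 (OAT3; chr19:8591254-8611834, + strand; ENSMUSG00000063796) carries organic anions such as neurotransmitter metabolites and drugs out of brain fluid. It was at 164, 165 and 155 FPKM in the untreated libraries (F_1, F_2, M_1) and at 141, 150 and 167 FPKM in bezafibrate F_1, M_1 and M_2. Bezafibrate M_2 was the highest of the 6 and the groups overlapped. The means were 161 ± 5.65 and 153 ± 13.5 FPKM, with a log2 difference of -0.08 (SE 0.133, limma adjusted p = 0.999). The choroid plexus is known to express Slc22a8 too, and its marker Ttr was at 389, 349 and 375 FPKM in untreated and 397, 540 and 919 FPKM in bezafibrate F_1, M_1 and M_2. Of the 12 choroid plexus and ependymal markers tested, 11 had positive differences, none was called by limma and 1 had an unadjusted p under 0.05; their part in the level of Slc22a8 was not tested. The neighbouring gene Slc22a6, 6.16 kb away, was at or below 0.185 FPKM.

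Slco2b1 (OATP2B1; chr7:99657804-99711340, - strand; ENSMUSG00000030737), a carrier of sulfated steroids and drugs, was the single member whose groups did not overlap in FPKM. It was at 54.9, 63.3 and 51.8 FPKM in the untreated libraries (F_1, F_2, M_1) and at 46.2, 48.2 and 44.9 FPKM in bezafibrate F_1, M_1 and M_2. All 3 bezafibrate libraries lay below all 3 untreated ones. The means were 56.7 ± 5.97 and 46.4 ± 1.64 FPKM, a ratio of 0.819 and a log2 difference of -0.28 (SE 0.133, 95% interval -0.59 to 0.03, limma adjusted p = 0.999). Of all 11277 genes tested, 4.13% had bezafibrate libraries entirely below the untreated ones, and 8.42% did not overlap in either direction, so that 1 of 9 members is near the background.

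The separation of Slco2b1 depended on how libraries were scaled. When each library was rescaled to the same total (a fixed sum of FPKM, as TPM has), Slco2b1 stood at 193, 209 and 160.3 in untreated and 150, 189 and 162 in bezafibrate libraries, and the groups overlapped. On that scale Abcc4 was the member whose groups did not overlap, with 237, 264 and 243 in untreated and 346, 273 and 286 in bezafibrate libraries, against 9.59% of all genes. The difference of Slco2b1 was negative in 17 of 17 alternative settings, from -0.36 to -0.17. The antisense genes Gm15635 and Gm34280 cover 9.21% of the exon bases of Slco2b1. Gm15635 was at 1.07 to 1.69 FPKM and Gm34280 at 0.153 to 0.470. Microglia and macrophages, which the CD45- gate is meant to remove, are also known to express Slco2b1, and their 13 markers summed to 31.3, 29.5 and 37.5 FPKM in untreated and 22.8, 33.4 and 28.2 FPKM in bezafibrate libraries. Of the 7 tested, 5 had negative and 2 positive differences, beside 5845 negative among all 11277 genes. The groups did not overlap for 1 of the 7, higher with bezafibrate, beside 8.42% of all genes in either direction. The part of these cells in the level of Slco2b1 was not tested.

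**Figure D2:**
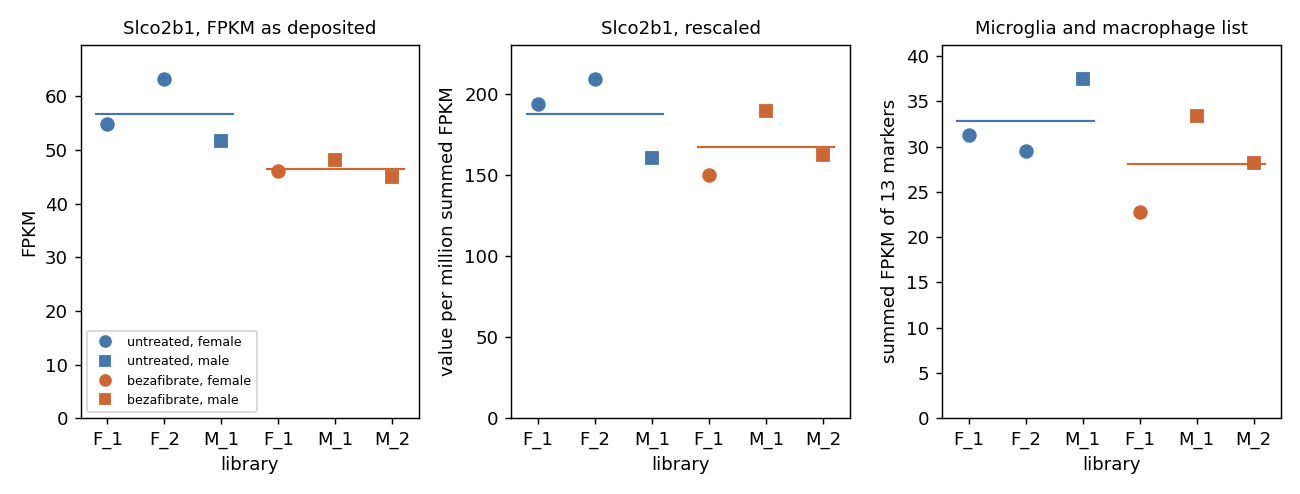
Slco2b1 in every library as deposited (left, FPKM) and rescaled to a fixed sum of FPKM (middle), beside the summed FPKM of 13 microglia and macrophage markers (right); circles are female and squares male libraries, untreated in blue and bezafibrate in orange, and lines are group means (n = 3). The groups are apart in the left panel, with bezafibrate at 44.9 to 48.2 FPKM and untreated at 51.8 to 63.3 FPKM, and overlap in the other panels.

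None of the 9 members that passed the filter (3 or more libraries at 1 FPKM or higher) was called for bezafibrate, where 1 of 11277 genes was called (0.00887%) at a limma adjusted p under 0.05. At an unadjusted p under 0.05 none of the 9 passed either, against 4.19% of all genes, and limma-voom called none of them. Differences were positive for 2 and negative for 7 members, with a median of -0.05, beside a median of -0.0091 over all genes, of which 5432 were positive and 5845 negative. This balance followed the scaling: with values rescaled to a fixed sum 7 of 9 were positive (median 0.07, all genes 0.10), and with quantile scaling 6 of 9 (median 0.08, all genes 0.0051). The 95% intervals of the 9 members ran from -0.59 to 0.59 at their widest, which is 0.665-fold to 1.502-fold on the scale of FPKM + 1. A p that misses the threshold does not show that bezafibrate left these genes alike. Each interval gives the differences of its gene that are compatible with these 6 libraries.

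**Figure D3:**
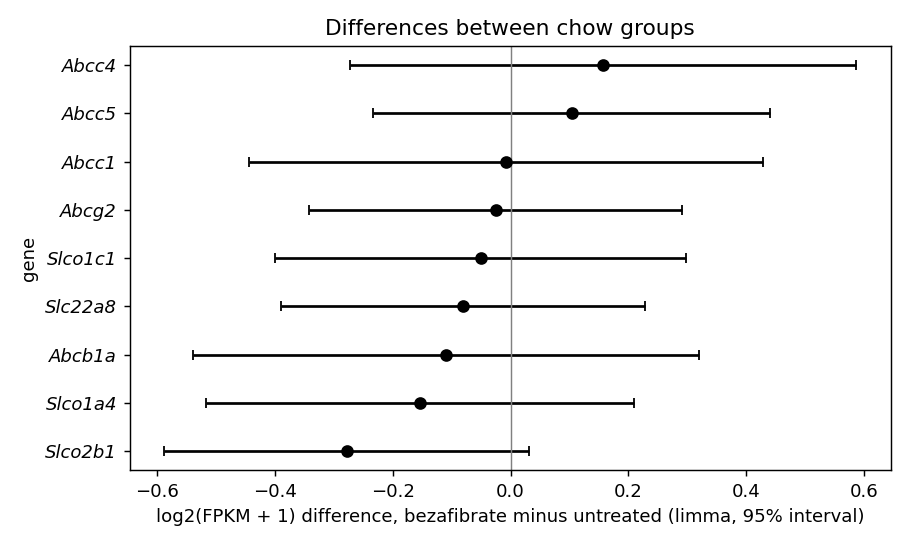
Difference between chow groups for the 9 transporters tested, as log2(FPKM + 1), bezafibrate minus untreated (n = 3 each); points are limma estimates and bars 95% intervals. Every interval includes 0, with the estimates between -0.28 for Slco2b1 and 0.16 for Abcc4.

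The transporters varied moderately between libraries. The coefficient of variation over all 6 libraries ranged from 6.60% for Slc22a8 to 17.5% for Abcc4 among those tested, with a median of 11.1% beside 18.6% for protein-coding genes tested. That comparison is between genes of unlike level, and counting error is larger for low genes. Untreated F_2 was the highest library for 5 of the 10 genes, and bezafibrate F_1 the lowest for 4 of them. In bezafibrate F_1 the genes went different ways: Abcc4 was 0.42 and Abcc1 0.20 above their mean log2 values, and Slco1c1 0.18 below. The lowest there was Abcb1b, at -0.36 and from 10 recovered reads.

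**Figure D4:**
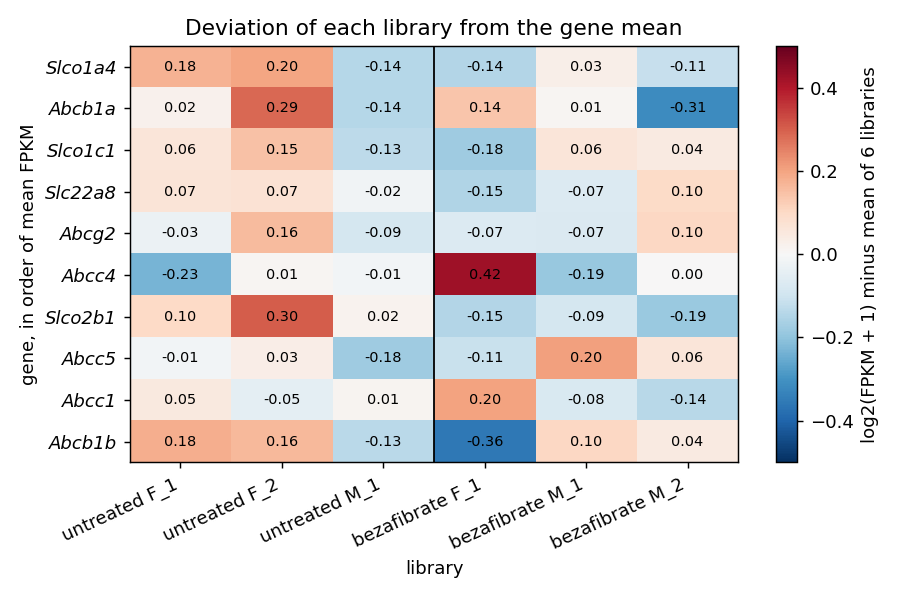
Deviation of each library from the mean of all 6, in log2(FPKM + 1), for each transporter; red is above and blue below the mean, and the vertical line divides untreated from bezafibrate libraries. Slco2b1 is above its mean in the untreated and below it in the bezafibrate libraries, and Abcc4 departs most in bezafibrate F_1 (0.42).

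The groups differ in sex, with 2 female libraries of 3 in the untreated and 1 of 3 in the bezafibrate group. Sex was therefore fitted with treatment as a covariate. No member was called by limma at an adjusted p under 0.05, where 3 of 11277 genes were called (0.0266%). None of the members had an unadjusted p under 0.05 either, for which the share over all genes was not counted. Abcb1a was the single member whose sexes did not overlap in FPKM as deposited. Its male libraries, at 394, 439 and 351 FPKM, lay below the female ones at 443, 532 and 481 FPKM. The means were 395 ± 44.0 and 485 ± 45.1 FPKM (SD, n = 3 each). The sexes did not overlap for 7.94% of all 11277 genes, so that 1 of 9 members is near the background. The log2 difference, male minus female, was -0.30 (SE 0.185, limma adjusted p = 0.9999). With each library rescaled to a fixed sum of FPKM, the sexes overlapped for Abcb1a. Males were then at 1222 (untreated M_1), 1726 (bezafibrate M_1) and 1265 (bezafibrate M_2). Females were at 1557 (untreated F_1), 1759 (untreated F_2) and 1559 (bezafibrate F_1).

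Within each sex the differences rest on 3 libraries, 1 of which stands alone. In females, bezafibrate minus untreated was -0.33 for Slco1a4, -0.28 for Slco1c1, -0.35 for Slco2b1 and 0.53 for Abcc4 on the log2 scale. In males the same differences were 0.10, 0.18, -0.15 and -0.08, so that among these genes only Slco2b1 kept its sign. The sign also changed for Abcg2 (-0.13 in females, 0.10 in males) and Abcc1 (0.20 and -0.12). The same held for Abcc5 (-0.12 and 0.31) and Slc22a8 (-0.22 and 0.03). For Abcb1a both were near 0, at -0.01 in females and -0.01 in males. In a fit with a term for treatment by sex, that term was furthest from 0 among the members for Abcc4, at -0.61 on the log2 scale. That fit has 2 residual degrees of freedom, and its lone female bezafibrate and lone male untreated libraries are the pair that stood apart, so sex and library cannot be told apart.

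RefSeq gave 14 promoter windows (GRCm38.p6, the 250 bases before a start site) for 9 members. The only Abcb1a window, at chr5:8566841-8567090, lies far upstream of the start of that gene in GENCODE, at 8660077. The bases just before that start were not searched. The direct repeat that PPAR and RXR bind together (DR1: AGGTCA, any base, AGGTCA) was searched on both strands, and was in 0 of the 14 and in 0.0335% of 32851 windows of all genes. Its half-site AGGTCA alone was found in 14.0% of all windows and, among the members, only in windows of Abcg2. The 14.0% is a share of windows, so it compares with the Abcg2 windows that hold the half-site, out of the 14. A count of members cannot be compared with it, and whether the members depart from that share was not tested. The Abcg2 window at chr6:58640296-58640545 (+ strand) held 1 half-site, and that at chr6:58596422-58596671 (+ strand) held none. The Abcg2 window at chr6:58584283-58584532 (+ strand) held 2 half-sites, printed in capitals. They lie apart on opposite strands and do not form the direct repeat.
Abcg2: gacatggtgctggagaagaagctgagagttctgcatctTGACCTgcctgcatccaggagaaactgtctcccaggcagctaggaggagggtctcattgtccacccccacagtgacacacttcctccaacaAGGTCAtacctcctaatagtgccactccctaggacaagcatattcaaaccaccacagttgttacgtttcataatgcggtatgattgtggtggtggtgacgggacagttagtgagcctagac
The core that NRF2 binds in antioxidant response elements, TGACNNNGC, was in both windows of Abcc4 and in 10.2% of all windows. The window at chr14:118706220-118706469 (- strand), which ends at the start of Abcc4, is shown with that core in capitals. Abcc4 was picked for its largest positive difference (0.16, limma adjusted p = 0.999), and a link between core and level was not tested.
Abcc4: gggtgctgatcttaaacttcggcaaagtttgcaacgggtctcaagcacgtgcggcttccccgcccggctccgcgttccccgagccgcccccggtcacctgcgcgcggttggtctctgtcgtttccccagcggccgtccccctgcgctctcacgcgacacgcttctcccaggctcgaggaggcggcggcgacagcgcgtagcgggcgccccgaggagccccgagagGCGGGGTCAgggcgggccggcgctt
The AHR core GCGTG (28.2% of all windows) occurred in that same Abcc4 window alone among the members, and the TCF/LEF motif CTTTGAT (3.21%) in none. These are matches of letters, not evidence of binding.

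Of 29 regulators known for these genes, 17 were tested, 3 with positive and 14 with negative differences and a median of -0.07. None was called by limma, and 1 had an unadjusted p under 0.05. The xenobiotic receptors, which induce several of these transporters in other tissues, were barely read: Nr1i2 (PXR) at 0 to 0.146 FPKM and Nr1i3 (CAR) at 0 to 0.0563 FPKM. Of the PPAR genes, Ppard was at 21.4 to 30.9 FPKM, while Ppara stayed at 0.117 to 0.449 FPKM and Pparg at 0.0505 to 0.551 FPKM. The most abundant were the Wnt effector Ctnnb1 (242 ± 9.26 untreated, 227 ± 20.4 FPKM bezafibrate), the NF-kB subunit Rela (115 ± 30.6 and 91.6 ± 37.6 FPKM) and the liver X receptor Nr1h2 (56.7 ± 4.23 and 53.2 ± 7.60 FPKM). Rela also had the lowest difference, -0.36, and the retinoid X receptor Rxrb the highest, 0.16. Groups did not overlap for 3 of the 17, beside 8.42% of all genes in either direction, all lower with bezafibrate: the NRF2 gene Nfe2l2 (22.2 ± 2.19 and 17.8 ± 2.04 FPKM), Nfkb1 (10.3 ± 0.700 and 9.04 ± 0.508 FPKM) and the mineralocorticoid receptor Nr3c2 (6.49 ± 0.221 and 5.01 ± 0.222 FPKM). These 3 are named here after their values were seen. Their separation is in FPKM as deposited, and whether it holds with values rescaled to a fixed sum was not tested.

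Other members of the same families were mostly low. Of 44 other ABC genes 22 were tested, with 9 positive and 13 negative differences and a median of -0.06. None was called by limma, and 1 had an unadjusted p under 0.05. The most abundant were Abcf1 (22.2 ± 0.742 untreated and 21.8 ± 0.943 FPKM bezafibrate) and Abcf2 (17.2 ± 0.559 and 15.4 ± 3.23 FPKM), which act in translation and not in transport, and Abcc6 (16.1 ± 1.87 and 13.1 ± 2.41 FPKM). The lowest difference was that of the mitochondrial Abcb10 at -0.30 (limma adjusted p = 0.999), and the highest that of Abcg3 at 0.45. Of 37 other SLCO and SLC22 genes 8 were tested, with 4 positive and 4 negative differences and a median of -0.02. None was called by limma, and 0 had an unadjusted p under 0.05. The carnitine carrier Slc22a5 led them (17.4 ± 3.01 and 15.8 ± 1.70 FPKM), followed by Slc22a17 (9.84 ± 0.759 and 10.8 ± 1.60 FPKM) and Slc22a21 (3.78 ± 0.584 and 4.07 ± 0.142 FPKM). The lowest and highest differences were those of Slco3a1 (-0.26) and the prostaglandin carrier Slco2a1 (0.16). The close relatives Abcb4, Abcc2, Abcc3, Slco1a1 and Slco1b2 were each at or below 0.356 FPKM, and Slco1a6 was listed at 0 in all 6 libraries.

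Thyroxine reaches the brain through Slco1c1 together with other carriers, so the genes of thyroid hormone handling were read beside it. Of 12 listed, 6 were tested, 1 with a positive and 5 with negative differences and a median of -0.12. None was called, and 0 had an unadjusted p under 0.05 by limma. The amino acid exchanger Slc7a5 was at 498 ± 26.8 untreated and 558 ± 128 FPKM bezafibrate, and its partner Slc3a2 at 277 ± 24.4 and 276 ± 24.4 FPKM. The lowest difference was -0.26 for Hr, a thyroid hormone target.

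P-glycoprotein and ABCG2 are held and moved at the membrane by other proteins, and 14 of 17 such genes listed were in the table. Of these 12 were tested, 5 with positive and 7 with negative differences and a median of -0.04. By limma none was called, and 0 had an unadjusted p under 0.05. The scaffold Slc9a3r2 was at 532 ± 109 untreated and 643 ± 87.1 FPKM bezafibrate, with the highest difference (0.28), the membrane-actin linker Msn at 146 ± 51.1 and 123 ± 41.8 FPKM, and the caveolar coat gene Cav1 at 97.3 ± 14.0 and 102 ± 15.2 FPKM. The lowest difference was -0.48 for Pim1, a kinase known to act on ABCG2, at 29.7 ± 6.62 and 21.9 ± 9.88 FPKM.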

How the data were processed

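RNA-seq libraries were made from sorted brain endothelial cells, 3 untreated and 3 given bezafibrate. Per the labels' protocols, cDNA was made with SMART-Seq HT, libraries with Nextera XT, and de-duplicated single reads of 75 bases were mapped with Salmon by the authors. The submitters' processing notes name GRCm38. The deposited table gives FPKM for 54532 genes. For its scaling, the Salmon version and the use of strand, no source used here gives an answer. The untreated male column bears another number than the sample's title and was assigned through that sample's description.

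FPKM times gene length gave whole reads for 100% of values (tolerance 0.01 reads). These reads served for depth and for a limma-voom alternative, which called 0 genes. Analysis used log2(FPKM + 1), which understates changes of low genes, for the 11277 genes at 1 FPKM or higher in 3 or more libraries. Each gene was fitted with limma 3.58.1 (R 4.3.3; lmFit, eBayes with trend), two-sided, with Benjamini-Hochberg adjustment over all genes and calls at an adjusted p under 0.05. For one gene, an exact permutation of 3 against 3 cannot go below 0.1. Tested on simulated data of 11277 genes for bezafibrate minus untreated, the fit recovered 65 of 200 changes of 1 and 175 of 200 of 2 on the log2 scale.

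Sequence words and coding sequences came from the GENCODE annotation of GRCm38, promoters from RefSeq. Members and lists were chosen with earlier results of these data known. Named were all 10 members and, of each companion list, any gene called, the 3 with the highest mean FPKM, and the largest positive and negative difference. A gene that this rule names is not reported here. Nfe2l2, Nfkb1, Nr3c2, the PPAR genes, Nr1i2, Nr1i3 and the close relatives Abcb4, Abcc2, Abcc3, Slco1a1, Slco1a5, Slco1a6, Slco1b2 and Slc22a6 are named outside the rule, as are marker genes. Alternatives were other pseudocounts, filters, scalings, covariates, sample weights, a replicate block and leaving out libraries.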

Additional observations from a re-analysis of the deposited data

How the results depend on the processing

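The differences of the 9 members tested were recomputed in 151 alternative fits. Of these 122 kept the sign of the reported value and 29 reversed it, none was called, and the lowest limma adjusted p was 0.391 (Slco2b1, array weights). Slco2b1, Slco1a4 and Abcc5 kept their sign in all 17 alternatives each, and Abcc1 had 15, since it failed the filter in the others. With each library rescaled to a fixed sum (TPM), the log2 difference reversed for Abcb1a (0.0080), Abcg2 (0.0918), Abcc1 (0.0720), Slco1c1 (0.0667) and Slc22a8 (0.0359). With quantile scaling it reversed for Abcb1a (0.0803), Abcg2 (0.0838), Slco1c1 (0.118) and Slc22a8 (0.0172). With limma-voom it reversed for Abcb1a (0.00060), Abcg2 (0.0850), Abcc1 (0.0880), Slco1c1 (0.0596) and Slc22a8 (0.0289). Abcc1 also reversed with sex (0.0415) or the composition ratio, recovered reads over the library size behind the FPKM (0.0735), as a covariate. The shared names F_1 and M_1 do not establish pairs. With a replicate block on them Abcb1a (0.136) and Abcc1 (0.0319) reversed, 4 of 9 members were positive, and 0 genes were called. The causes were not tested.

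Leaving out 1 library at a time, the difference ranged from -0.209 to 0.0198 for Abcb1a, -0.0838 to 0.0468 for Abcg2, -0.112 to 0.0586 for Abcc1, -0.0145 to 0.291 for Abcc4 and -0.129 to 0.0260 for Slco1c1. Genes called for bezafibrate numbered 0 to 3, those for sex 1 to 4, and members whose groups did not overlap 1 to 3. These were Slco1a4, Slco1c1 and Slco2b1 without untreated M_1, Abcc1, Slco2b1 and Abcc5 without bezafibrate F_1, and Slco2b1 and Slc22a8 without bezafibrate M_2. The share of all genes whose groups did not overlap was then 17.2%, 27.1% and 15.3% in that order, and 15.2% to 17.1% without another library, where Slco2b1 was the 1 member. Genes called for bezafibrate numbered 0 with limma-voom and 0 with both of the libraries left out that stood apart.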

Other observations

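Drug-metabolising enzymes, which act on many substrates of the same transporters, were read as a further list. Of 35 listed, 22 were tested, 9 with positive and 13 with negative differences, and a median of -0.08. None was called by limma, and 3 of 22 had an unadjusted p under 0.05, beside 4.19% of all genes. In FPKM as deposited, groups did not overlap for 2 higher and 3 lower with bezafibrate, beside 8.42% of all genes in either direction. The most abundant were the glutathione transferase Gstm1 (151 ± 14.7 untreated and 150.6 ± 15.5 FPKM bezafibrate; SD, n = 3 each), the epoxide hydrolase Ephx1 (98.7 ± 7.65 and 82.7 ± 9.64 FPKM) and Gsta4 (96.1 ± 17.8 and 85.7 ± 29.8 FPKM). The highest difference was that of the sulfotransferase Sult1a1, which makes conjugates of the kind that ABCC and SLCO proteins carry. It stood at 28.0, 37.8 and 35.9 FPKM in the untreated libraries and at 48.8, 48.0 and 66.0 FPKM in the bezafibrate libraries. Its log2 difference of 0.66 (SE 0.183) had a limma adjusted p of 0.986. The lowest difference was -0.59 for Tiparp, an AHR target (20.4 ± 2.33 and 13.7 ± 4.91 FPKM), whose bezafibrate libraries also lay below all untreated ones.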
